A study of Mus musculus with 2 samples.

Results

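The genes of neuropeptide Y, of the granins and of the enzymes that mature secreted peptides were measured in siCPEB1- and siControl-transfected Neuro2a cells. These are 10 genes (Npy, Chga, Chgb, Scg2, Scg3, Scg5, Vgf, Cpe, Pam and Pcsk1), taken by symbol, and every probe set that the platform annotation gives to only 1 of them was included. This gave 11 probe sets of 45101 on the array, with 2 for Cpe and 1 for each other gene. Neuro2a is a mouse neuroblastoma line with many traits of sympathetic neurons. The siCPEB1 culture received siRNA against Cpeb1 for 24 h and the siControl culture received control siRNA for 24 h, and RNA from each was hybridized to 1 Affymetrix Mouse Genome 430 2.0 array from 100 ng of total RNA. Both cultures are of the same line, and nothing else in their labels differs. With 1 array for each condition there is no test and no p-value. A ratio describes these arrays only, and the effect of the siRNA and the spread between cultures cannot be told apart.

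Neuropeptides are made as larger precursors that are sorted, with the acidic granin proteins, into dense-core vesicles at the Golgi. Inside the vesicle, prohormone convertases cut the precursor after pairs of basic residues, carboxypeptidase E removes the basic residues left at the new end, and the enzyme encoded by Pam turns a terminal glycine into an amide. Neuropeptide Y, which sympathetic neurons release together with noradrenaline, goes through all of these steps. The gene symbol Cpe stands here for carboxypeptidase E and not for the cytoplasmic polyadenylation element that CPEB1 binds.

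The regions around the annotated starts of these genes are shown first, because several genes of this class carry a cAMP response element (CRE), the site of CREB family factors. Promoter sequences from RefSeq on GRCm38.p6 were at hand for 8 of the 10 genes, with 250 bases before the start and 50 after it. Vgf and Cpe had no entry. The printed stretches lie at chr6:49822560-49822759 (Npy, + strand), chr2:132781544-132781603 (Chgb, + strand), chr1:79440061-79440120 (Scg2, - strand), chr13:75089753-75089812 (Pcsk1, + strand) and chr12:102554871-102554930 (Chga, + strand). Capitals mark a GC box (GGGCGG) in Npy, the CRE palindrome (TGACGTCA) in Chgb, Scg2 and Pcsk1, and its first bases (TGACG) in Chga. Npy is shown for its ratio on the arrays and the other genes for this element.
Npy: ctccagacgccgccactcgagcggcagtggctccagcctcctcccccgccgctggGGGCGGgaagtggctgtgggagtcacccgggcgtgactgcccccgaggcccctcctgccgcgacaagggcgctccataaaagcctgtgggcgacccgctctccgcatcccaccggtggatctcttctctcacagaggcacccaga
Chgb: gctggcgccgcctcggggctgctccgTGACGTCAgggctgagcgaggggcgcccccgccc
Scg2: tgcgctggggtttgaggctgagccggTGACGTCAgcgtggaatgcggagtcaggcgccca
Pcsk1: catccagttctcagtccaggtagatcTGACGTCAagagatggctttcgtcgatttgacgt
Chga: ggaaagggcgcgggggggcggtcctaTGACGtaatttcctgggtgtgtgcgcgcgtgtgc

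The palindrome TGACGTCA was found in 3 of the 8 genes, at bases -72 to -65 in Chgb, -68 to -61 in Scg2 and -78 to -71 in Pcsk1, counted from the annotated start. For Pcsk1 the start used lies inside the gene, which begins at chr13:75089420, before the printed stretch. The palindrome was found in 1.79% of 32851 such windows over all genes. The shorter TGACG, searched on both strands and contained in the palindrome, was present in 6 of the 8 genes and in 20.8% of all windows. In Chga it lay at -44 to -40. The window of Npy held neither, but had 1 GC box (GGGCGG), at -95 to -90, and Pam had 3 GC boxes in each of its windows. A GC box was found in 6 of the 8 genes and in 35.7% of all windows. TCAGCACC, a part of the RE1 element that the repressor REST binds, was found on the other strand in Scg2 alone of the 8, at -7 to 1, and in 1.65% of all windows. TATAAA was found in Chga alone, at 6 to 11, and in 13.6% of all windows. These are matches of letters and say nothing of binding in these cells.

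**Figure D1:**
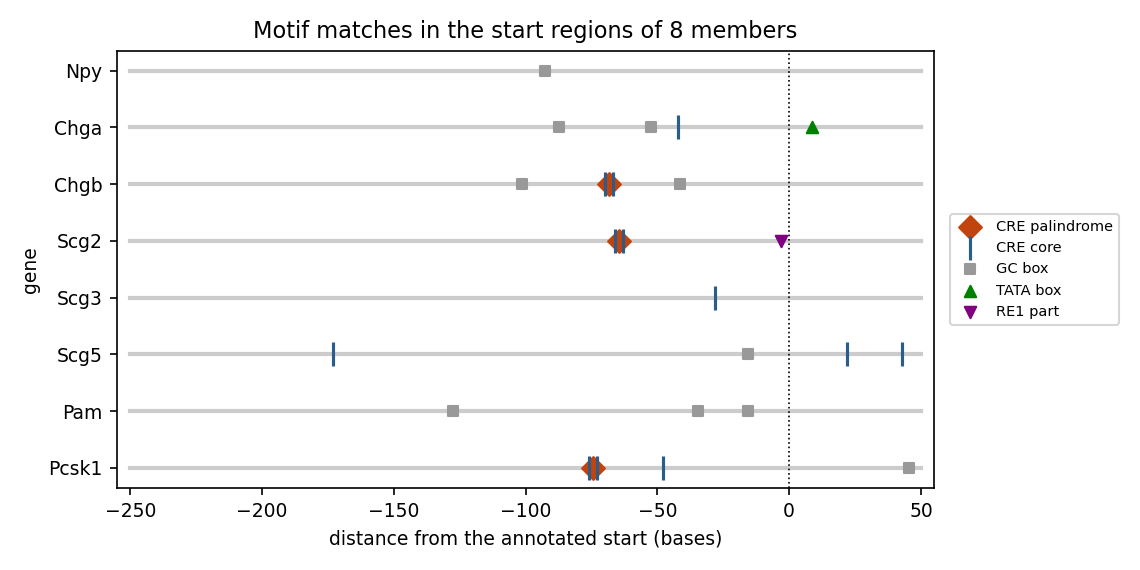
Motif matches in the 8 genes with a promoter entry, with the distance from the annotated start in bases on the x axis and a row for each gene (for Pam, 1 of its windows). The CRE palindrome (diamonds) lies between -78 and -61 in Chgb, Scg2 and Pcsk1, and Npy and Pam carry GC boxes (squares) without a CRE core (bars).

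Cpeb1, the target of the siRNA, gave 38.5 in siCPEB1 and 302 in siControl, 8.09-fold lower. Signals are MAS5 values in arbitrary units, and log2 ratios are siCPEB1 over siControl with each array set to its 75th percentile. The array median was 21.54 in siCPEB1 and 20.96 in siControl. A probe set passed the signal filter if it reached the median on at least 1 array and the 25th percentile on the other, and it counted as higher or lower if the ratio was also past 2-fold. Probe sets of 1 gene that passed differed with a pooled SD of 0.37 in log2 ratio, and the log2 ratios of 18 hybridization controls averaged -0.17 (SD 0.08). The 3-prime over 5-prime signal ratio was 0.782 in siCPEB1 and 0.798 in siControl for Gapdh, and 1.35 and 1.27 for Actb. These spreads are within the arrays and do not include the spread between cultures.

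Of the 9 genes with a probe set that passed, Npy and Pam were more than 2-fold higher in siCPEB1 and none was lower. Across the array 4.11% of the 23686 probe sets that passed were higher and 4.55% were lower. The signals of Chgb and Chga lay just under 2-fold, those of Scg2 and Cpe were 1.31- and 1.36-fold apart with the larger in siCPEB1, and Scg3 and Scg5 had ratios near 1. Vgf had a 1.54-fold smaller signal in siCPEB1. Pcsk1 was too dim on both arrays for a ratio.

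**Figure D2:**
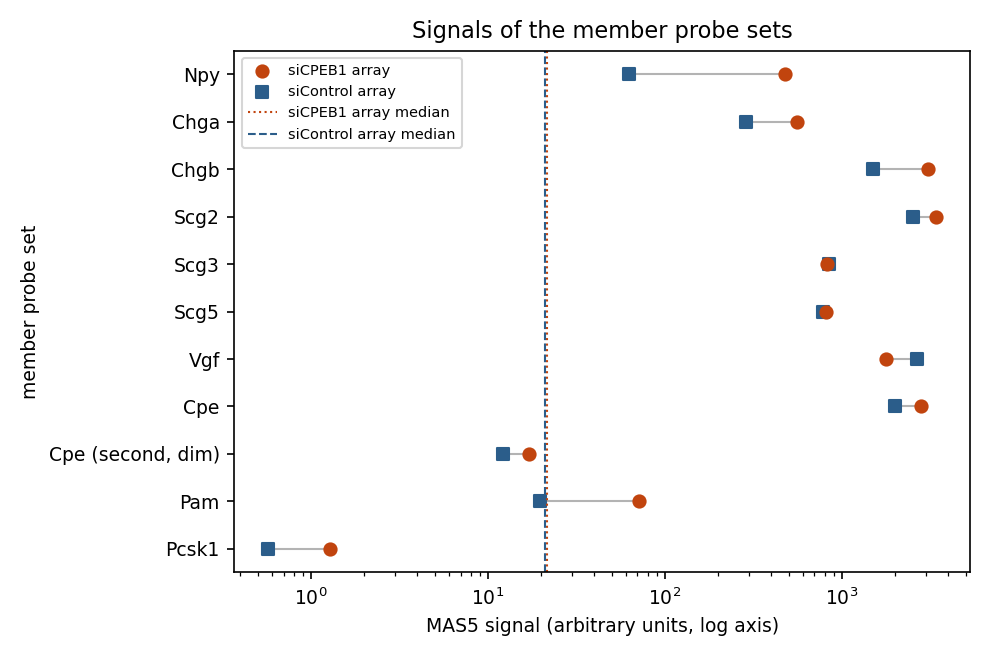
MAS5 signal (log x axis, arbitrary units) of each member probe set on the siCPEB1 array (circles) and the siControl array (squares), joined by a line, with the median of each array as a vertical line. Npy has the longest line among passing probe sets, with 476 in siCPEB1 and 62.5 in siControl, Scg3 and Scg5 have overlapping symbols, and Pcsk1 and the second probe set of Cpe lie left of both medians.

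Npy encodes the precursor of neuropeptide Y, the ligand of this group. Its probe set 1419127_at had a signal of 476 in siCPEB1 and 62.5 in siControl. This is 7.40-fold higher (log2 ratio 2.89), with both signals above the array medians, and the ratio ranked 19 from the highest of 23686 probe sets. The passing probe sets were divided by mean log2 signal into 10 bins of equal size, bin 1 the dimmest. Npy ranked 3 of 2368 in bin 6, where 2.36% were more than 2-fold higher and 4.18% were lower. Its log2 ratio was between 2.61 and 2.93 under the other scalings and with 16 added to both signals.

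The granins form the matrix of dense-core vesicles and are themselves cut into peptides. Chgb, which encodes chromogranin B, had a signal of 3073 in siCPEB1 and 1498 in siControl at 1415885_at, a 1.99-fold difference (log2 ratio 0.996) that lay just inside 2-fold. It was past 2-fold with no shift between the arrays (log2 ratio 1.04), after quantile normalization (1.09) and after loess (1.09), and 3 member probe sets were then higher. Bright probe sets differed little between the arrays. In bin 10, the brightest, where Chgb lies, 4 of 2369 probe sets (0.169%) were more than 2-fold higher, and Chgb came next after these. In the same bin 28 (1.18%) were more than 2-fold lower, and the median log2 ratio was -0.10. Chga, which encodes chromogranin A, had 561 in siCPEB1 and 287 in siControl at 1418149_at, 1.90-fold apart (log2 ratio 0.92), and stayed under 2-fold in each alternative scaling. It ranked 50 of 2368 in bin 8, where 1.90% were more than 2-fold higher and 3.55% were lower.

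Scg2 encodes secretogranin II, the precursor of the peptide secretoneurin. Its signal was 3416 in siCPEB1 and 2530 in siControl at 1450708_at, a log2 ratio of 0.39. This is close to the pooled SD of 0.37 between probe sets of 1 gene. In bin 10, where Scg2 lies, that SD was 0.21. Scg3, whose product binds chromogranin A and the vesicle membrane, had 825 in siCPEB1 and 844 in siControl at 1448628_at (log2 ratio -0.07). Scg5 encodes 7B2, the chaperone of prohormone convertase 2, and had 810 in siCPEB1 and 779 in siControl at 1423150_at (log2 ratio 0.02). Scg3 and Scg5 are the members whose ratios lay inside 1 SD of 0. Vgf, an extended granin family gene that neurotrophins induce, had 1767 in siCPEB1 and 2645 in siControl at 1436094_at. Its log2 ratio of -0.62 ranked 2223 from the highest of the 2369 probe sets of bin 10, and that of Scg2, in the same bin, ranked 142. The ratios of the granin genes therefore lay on both sides of 0 on these arrays.

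**Figure D3:**
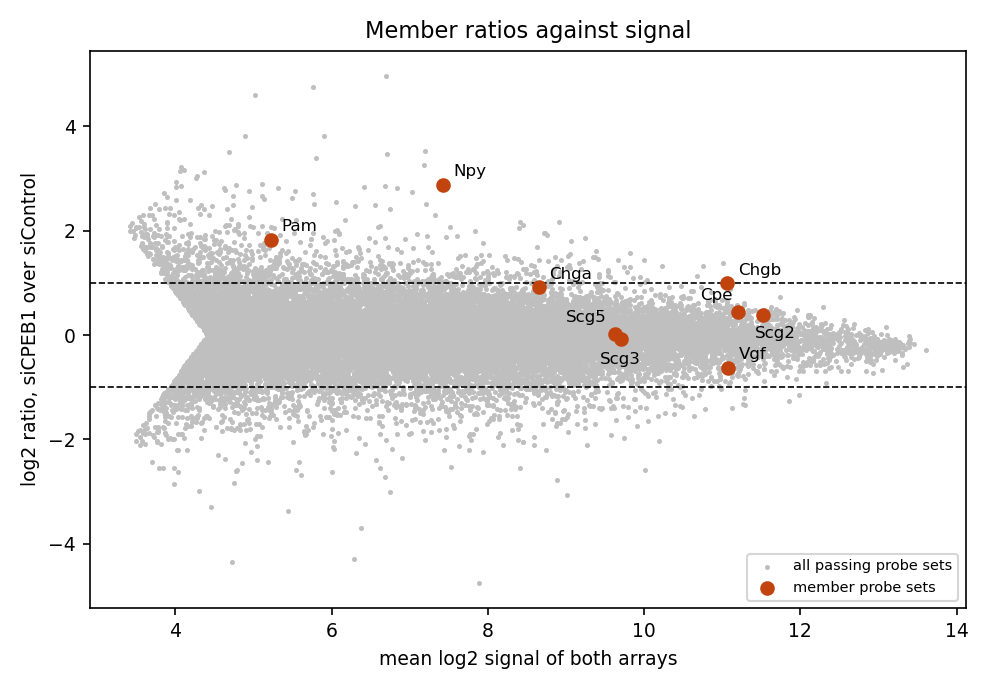
Log2 ratio of siCPEB1 over siControl (y axis) against the mean log2 signal of both arrays (x axis) for the 23686 probe sets that passed the filter (grey) and the 9 passing member probe sets (colour), with dashed lines at 2-fold. Npy and Pam lie above the upper line, Chgb lies on it where the grey cloud is narrow, and Vgf lies below 0.

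Among the processing enzymes, Pam had the largest ratio. It encodes peptidylglycine alpha-amidating monooxygenase, and its probe set 1418908_at had a signal of 71.7 in siCPEB1 and 19.6 in siControl. The siControl signal was below the array median, so the probe set passed the filter only through its siCPEB1 signal. The ratio was 3.56-fold, or at least 3.32-fold, a bound computed as if the dimmer signal had equalled the median of its array. Other folds written as "at least" use the same bound. With 16 added to both signals the log2 ratio was 1.26, against 1.83 without. Its rank was 18 of 2368 in bin 3, where 4.98% were more than 2-fold higher and 4.05% were lower.

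Cpe, the carboxypeptidase, had 2788 in siCPEB1 and 1994 in siControl at 1415949_at (log2 ratio 0.44). Its second probe set, 1439437_x_at, had 17.2 in siCPEB1 and 12.1 in siControl, below both array medians, with a log2 ratio of 0.46. The suffix x marks probes that may also bind other transcripts. Its brighter probe set ranked 101 of 2369 in bin 10. Pcsk1, which encodes prohormone convertase 1, had signals of 1.27 in siCPEB1 and 0.571 in siControl at 1421396_at, at percentiles 9.29 and 3.87 of the arrays. No fold is given for it.

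**Figure D4:**
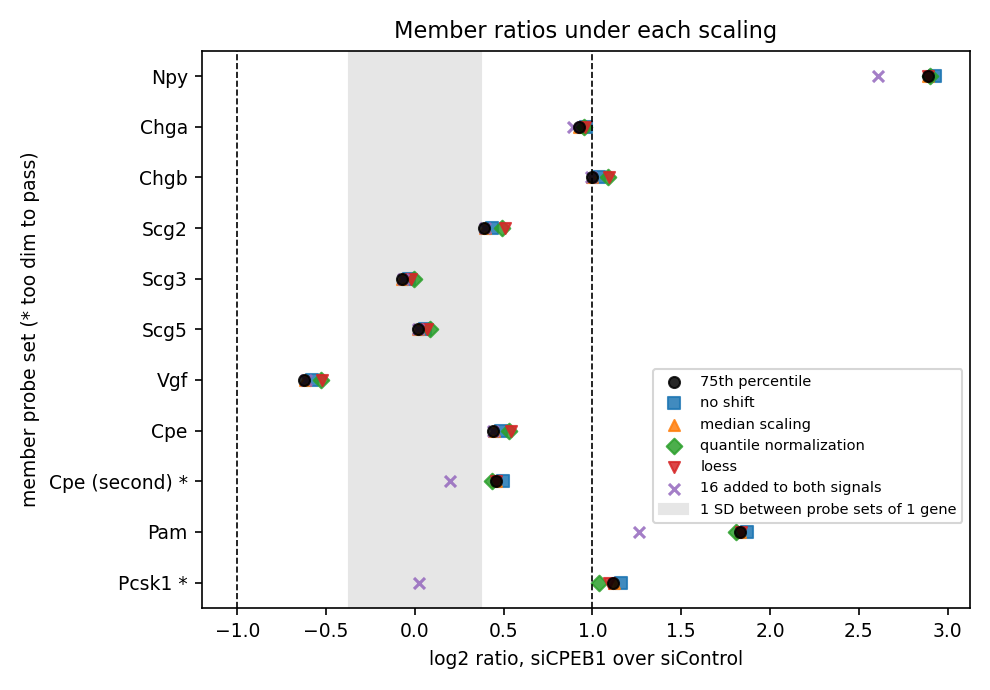
Log2 ratio of siCPEB1 over siControl (x axis) for each member probe set under the 75th percentile scaling (black circles), under 4 other scalings and with 16 added to both signals, with dashed lines at 2-fold and a grey band of 1 SD between probe sets of 1 gene. Chgb straddles the 2-fold line, Pam drops to 1.26 and Pcsk1 to 0.02 with 16 added, and no member changes sign.

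The other genes of the pathway were taken as 5 lists, with 1 probe set for each gene, where 4.54% of 11554 genes were higher and 3.89% were lower. The median log2 ratio was 0.44 over the 9 passing members and 0.00 over all passing genes. With dim genes counted it was 0.68 over all 10 members, the dim Pcsk1 among them, and 0.02 over all genes. The members were chosen with earlier results of these data known, so these medians do not test them. Of 50 other precursors of neuropeptides and peptide hormones, 42 were on the array under their own symbol, 14 passed, 3 were higher and 3 were lower (median 0.07). Pnoc, the precursor of nociceptin, had 66.5 in siCPEB1 and 15.4 in siControl, at least 3.08-fold higher. Vip, the precursor of vasoactive intestinal peptide, had 43.5 in siCPEB1 and 5.94 in siControl, at least 2.02-fold higher. Nppb, the precursor of brain natriuretic peptide, had 36.5 in siCPEB1 and 74.96 in siControl, 2.11-fold lower. Cort, the precursor of cortistatin, had 8.38 in siCPEB1 and 37.5 in siControl, a log2 ratio of -2.20 that is past 2-fold, but the bound for it is 1.79-fold. The remaining calls rested on the ratio alone, with 23.9 in siCPEB1 and 8.26 in siControl for Ghrh (growth hormone-releasing hormone) and 14.4 and 33.4 for Apln (apelin). Precursors with ratios near 1 included Cartpt, with 251 in siCPEB1 and 228 in siControl, and Pomc, with 90.7 and 88.7.

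Of 18 other processing enzymes and their regulators, 12 passed, 1 was higher and none was lower (median -0.16). The higher gene was Pcsk1n, which encodes proSAAS, an inhibitor of prohormone convertase 1 that is also a granin-like protein of the vesicle. Pcsk1n had 591 in siCPEB1 and 250 in siControl, 2.30-fold higher at its 1 probe set. Ctsl, a cathepsin that can cut precursors, had 1038 in siCPEB1 and 1703 in siControl (log2 ratio -0.76). Rnpep, an aminopeptidase that removes basic residues, and Qpctl, a glutaminyl cyclase of the Golgi, had log2 ratios of -0.45 and -0.44. Furin, the convertase of the constitutive pathway, had 237 in siCPEB1 and 221 in siControl, and Cpd, the carboxypeptidase of the Golgi, had 314 and 331. Pcsk2 was not analysed here.

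Of 39 genes of dense-core vesicle formation and release, 30 passed, 1 was higher and 4 were lower (median 0.02). Snap25, a SNARE protein of vesicle fusion, had 3373 in siCPEB1 and 1261 in siControl, 2.60-fold higher, and its second probe set was 2.29-fold higher (105 in siCPEB1 and 44.4 in siControl). Syt4, a synaptotagmin of dense-core vesicles, had 347 in siCPEB1 and 1049 in siControl at its brighter probe set, 3.11-fold lower, and was 3.04-fold lower at the other. Slc18a2, which loads monoamines into vesicles, had 117 in siCPEB1 and 254 in siControl, 2.22-fold lower. Hid1, which acts in the sorting of granule cargo, was 2.15-fold lower (275 and 575), while its second probe set, too dim to pass, had a log2 ratio of 0.05. Ica1, a granule-associated protein, was 2.02-fold lower (292 and 574) and 1.82-fold below siControl at its second probe set. Its call was lost with no shift between the arrays, where its signals were within 2-fold, and 3 genes of the list were lower with no shift, after quantile normalization, after loess and with 16 added. This list thus held genes past 2-fold in both directions. Dbh, which makes noradrenaline inside the vesicle, lay just under 2-fold with 53.1 in siCPEB1 and 26.2 in siControl (log2 ratio 0.98).

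Of 42 genes for neuropeptide receptors and NPY cleavage, 13 passed, 1 was higher and none was lower (median -0.24). The higher gene was Oprd1, the delta opioid receptor, with 56.9 in siCPEB1 and 16.7 in siControl, at least 2.64-fold higher. Calcrl, Bdkrb2 and Galr2, receptors for calcitonin family peptides, bradykinin and galanin, had log2 ratios of -0.92, -0.83 and -0.45. The receptors of neuropeptide Y itself were all too dim to pass. Npy1r had 10.7 in siCPEB1 and 4.11 in siControl, Npy2r had 0.303 and 1.03, Npy4r had 12.1 and 10.5, Npy5r had 9.22 and 5.81, and Npy6r had 1.61 and 0.112. Dpp4, the peptidase that shortens neuropeptide Y, had 158 in siCPEB1 and 145 in siControl (log2 ratio 0.08).

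**Figure D5:**
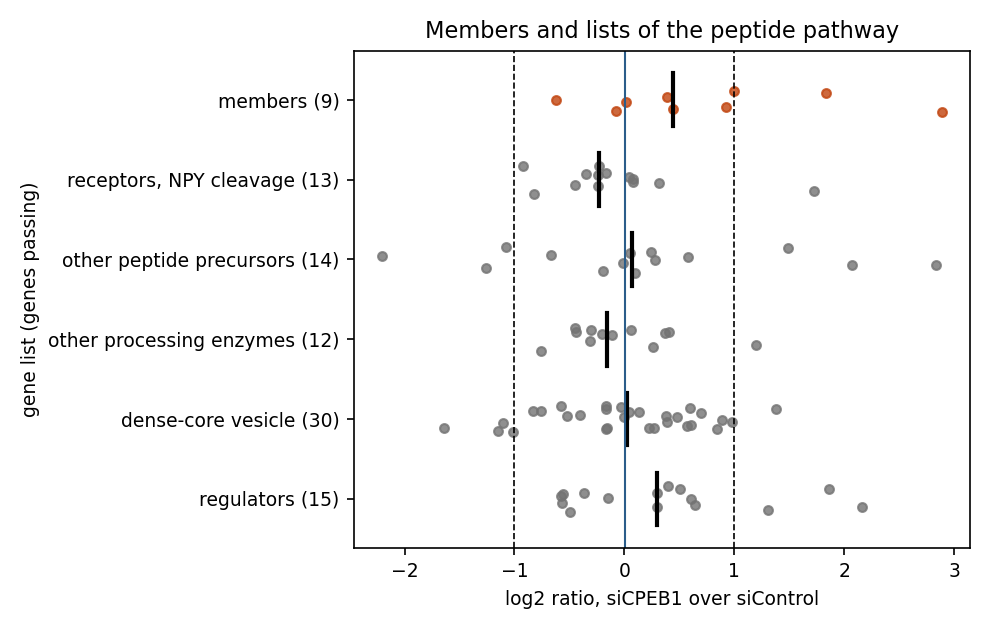
Log2 ratio of siCPEB1 over siControl (x axis) of each passing gene of the members and of the 5 pathway lists (points, spread vertically for clarity, number of genes in parentheses). A black bar marks each list's median, a blue line the median of all passing genes, and dashed lines 2-fold. The members' median is 0.44 and those of the lists lie between -0.24 and 0.30.

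Of 18 regulators of neuroendocrine genes, 15 passed, 3 were higher and none was lower (median 0.30). Isl1, a LIM homeodomain factor of sympathetic neurons, had 1036 in siCPEB1 and 224 in siControl, 4.49-fold higher, and was 3.72-fold higher at its second probe set. Gata3, a zinc finger factor of the same lineage, was 3.63-fold higher (172 in siCPEB1 and 46.0 in siControl), and the homeodomain factor Phox2a was 2.48-fold higher (1443 and 565). Rest, the repressor that binds RE1, had 233 in siCPEB1 and 184 in siControl (log2 ratio 0.30). Crem, a CRE-binding factor, had log2 ratios of 0.64, 0.28, -0.28 and -0.83 at its 4 probe sets, and Creb1 had one of -0.58. Rest and Creb1 are given only at the probe set that stood for each gene. With the mean of the passing probe sets of each gene, the regulators' median was 0.07 and 1 regulator was lower.

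Markers of the labelled cell type were present. Of 12 markers of sympathetic neuroblastoma, 9 passed, 4 were higher (Isl1, Gata3, Mycn and Phox2a) and none was lower, with a summed signal of 13740 in siCPEB1 and 10556 in siControl over 10 genes. Isl1, Gata3 and Phox2a were already counted among the regulators at the same probe sets, so their calls here are not separate results. The 3 probe sets of Mycn disagreed, with log2 ratios of 1.32, 0.66 and -0.97, and the first was the brightest. Th, the first enzyme of catecholamine synthesis, was too dim to pass (17.9 in siCPEB1 and 18.6 in siControl). Of the markers of other cells, 4 of 10 haematopoietic, 2 of 6 endothelial, 1 of 10 glial, 4 of 9 fibroblast and 3 of 6 endocrine genes passed. Past 2-fold among these were Col1a2, F13a1, Tyrobp and Vwf, which were higher (Tyrobp by its ratio alone, with a bound of 1.06-fold), and Pdgfrb and Acta2, which were lower. The summed signals covered every listed gene found on the array, those too dim to pass included. In siCPEB1 and siControl they were 599 and 160 for haematopoietic, 194 and 92.5 for endothelial, and 139 and 74.3 for glial markers. They were 516 and 551 for fibroblast, and 210 and 320 for endocrine markers. None of these markers was listed at 0. Of the glial sum, Mbp, the 1 gene that passed, gave 45.4 in siCPEB1 and 23.0 in siControl. The passing probe sets of Mbp disagreed, with log2 ratios from -0.13 to 1.67. Of the haematopoietic sum, F13a1 gave 458 in siCPEB1 and 46.2 in siControl. The 4 passing haematopoietic markers had log2 ratios of 3.27 (F13a1), 1.21 (Tyrobp), 0.39 (Laptm5) and 0.09 (Csf1r) at the probe set that stood for each gene. The 5 others, among them the defining marker Ptprc, were too dim to pass, with log2 ratios from -1.79 (Ptprc) to 0.74 (Cd14). The part of these markers in the ratios of Npy and Pam was not tested, and in bulk RNA fewer cells of a type and less RNA per cell cannot be told apart.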

How the data were processed

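RNA of siCPEB1- and siControl-transfected Neuro2a cells was measured on 1 array each. Per the labels, the authors computed the deposited values with MAS5 in Affymetrix Expression Console, and the values are linear signal intensities, 1 per probe set. MAS5 corrects the background and brings the whole array to 1 target. The version and that target are not given in the sources used here.

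Each array was divided by its 75th percentile over 45037 probe sets (64 AFFX controls left out), which took 0.04 off the log2 ratio, and log2 ratios were taken with no pseudocount. Symbols came from the platform annotation, updated to RefSeq names: 34945 probe sets had 1 symbol, 932 several and 9160 none listed. For lists, 1 probe set stood for a gene, by preference not _x_at or _s_at, then the brightest that passed. A signal below the array median was set at the median for a fold given as "at least". Mean log2 signal was ranked into 10 bins over passing probe sets. Besides the members, each pathway list's genes past 2-fold by that bound were named, filled to 4 by absolute ratio among those passing, and others, markers included, were named after their values were seen. The members and the 11 lists were chosen with earlier results of these data known. The steps were tested on simulated data. The alternatives were 4 scalings, 16 added to both signals, 3 filters and 3 ways to stand for a gene. Computation used Python 3.11.15 with pandas 2.3.3, statsmodels 0.14.6 (loess) and numpy 2.4.6, and plots used matplotlib 3.10.9. The number of arrays limits the precision.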

Additional observations from a re-analysis of the deposited data

How the results depend on the processing

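With 1 array per condition no replicate could be left out. No paired analysis was possible because each group has 1 sample. The SD of 0.37 between probe sets of 1 gene served as the yardstick for a moved ratio. Of the 55 recomputed member ratios, 2 moved by more, those of Pam (1.26) and Pcsk1 (0.023) with 16 added to both signals, and no called ratio changed sign. Of the members, 1 was higher when the median had to be reached on both arrays and 1 when the 75th percentile had to be reached on at least 1, since Pam then failed the filter. With no filter 3 were higher, Pcsk1 with them.

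Of all probe sets, 401 were higher and 518 lower with 16 added, against 973 and 1078 without, 485 and 672 with the median reached on both arrays, 244 and 443 with the 75th percentile reached, and 6158 and 5587 with no filter. List counts moved by over 1.5 times in 16 of 100 comparisons. With no filter, higher and lower genes numbered 9 and 2 for receptors (1 and 0 with the filter), 7 and 9 for other precursors (3 and 3), 6 higher for vesicle genes (1, and 2 with no shift) and 2 lower for enzymes (0). No receptor or other precursor was higher under either stricter filter, and lower precursors numbered 1 with the median on both arrays, 0 with the 75th percentile and 1 with 16 added. With the mean of passing probe sets, 1 receptor gene and 1 regulator were lower (0 with the preferred probe set and the same filter). The regulators' median was -0.15, against 0.30, with the 75th percentile filter, which tests fewer genes. The SD between probe sets of 1 gene was 0.67 in the dimmest of the 10 bins of passing probe sets, 0.43 in bin 3, which holds Pam, and 0.21 in the brightest. Pcsk1 and the neuropeptide Y receptors did not pass and lie in no bin.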
